A study of Mus musculus with 4 samples.

Results

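The mouse genes of the pre-mRNA splicing machinery whose symbols begin with Sf3, Snrp, Srsf, Prpf or Hnrnp were followed in crypt epithelium of the jejunum after loss of the transcription factor Yy1. The array measured 59 such genes among 18193 genes in all, each read from the probe set with the highest mean intensity over the 4 arrays. A probe set is a set of short oligonucleotides on the array whose signals are combined into a single value. Hnrnpa1l2-ps2, Hnrnpa3, Snrpa, Snrpd1 and Snrpd2 lie only on probe sets assigned to several genes and were not analysed here.

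RNA from knockout crypts was compared with RNA from control crypts, with 2 arrays each. The knockout mice had floxed Yy1 alleles and carried Vil-Cre-ERT2, a tamoxifen-dependent Cre under the Villin promoter, so that deletion is limited to cells in which that promoter is active, the intestinal epithelium. They received tamoxifen for 4 days. The other mice are labelled only as control. The sources used here do not state their genotype. The sample annotation used here lists 4 days of tamoxifen for all 4 samples, but the labels do not settle whether the control mice received it. All 4 samples are labelled C57BL/6J enriched for strain, and their RNA came from crypts freed with EDTA and filtered. The titles call the replicates biological but name no animals, so the errors below refer to these samples and not to known animals. The SDs below are the spread between 2 arrays. The SEs come from a fit that also draws on the variance pooled over all genes, so they are not the spread of a single gene's arrays. The sources used here give no ages.

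Splicing removes introns from pre-mRNA in a spliceosome built from small nuclear RNAs and their proteins (snRNPs). U1 marks the start of an intron and U2 its branch point. The U4, U6 and U5 snRNPs then join as a tri-snRNP, and rearrangements within the assembled complex activate catalysis. Each of these particles except U6 is held by a ring of Sm proteins, and U2 carries the SF3a and SF3b complexes that settle it on the branch point. SR proteins bind exons and mostly promote the use of nearby splice sites, while hnRNPs coat nascent transcripts and often repress nearby sites. In crypts these factors serve a tissue in which stem cells and their progeny divide rapidly.

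Promoter sequences are shown for the group of members with the largest share called higher, Snrpc, Snrpa1 and Snrpb2 of the U1 and U2 snRNPs. Sf3a2, Snrpf, Hnrnpl and Hnrnph3 were added after their values were seen, to show further match patterns and the gene that fell. Each stretch is from RefSeq on GRCm38.p6, read 5′ to 3′ on the gene's strand, and holds 120 bases before the annotated start and 30 bases from it. Snrpc is at chr17:27839967-27840116 (+), Snrpa1 at chr7:66060216-66060365 (+), Snrpb2 at chr2:143062949-143063098 (+) and Sf3a2 at chr10:80798615-80798764 (+). Snrpf is at chr10:93589629-93589778 (-), Hnrnpl at chr7:28810770-28810919 (+) and Hnrnph3 at chr10:63023820-63023969 (-). Capitals mark every match on either strand of ATGGCGG, the core of the motif that YY1 recognises, or of CCGGAAG, a core read by the ETS family.
Snrpc: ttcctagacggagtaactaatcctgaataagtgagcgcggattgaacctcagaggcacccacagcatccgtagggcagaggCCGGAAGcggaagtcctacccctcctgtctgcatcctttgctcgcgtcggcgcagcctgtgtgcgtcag
Snrpa1: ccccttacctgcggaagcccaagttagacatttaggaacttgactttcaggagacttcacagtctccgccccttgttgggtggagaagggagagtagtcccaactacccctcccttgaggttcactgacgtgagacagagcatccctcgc
Snrpb2: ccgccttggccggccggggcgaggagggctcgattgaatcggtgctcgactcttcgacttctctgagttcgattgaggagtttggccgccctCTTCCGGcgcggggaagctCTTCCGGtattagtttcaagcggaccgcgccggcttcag
Sf3a2: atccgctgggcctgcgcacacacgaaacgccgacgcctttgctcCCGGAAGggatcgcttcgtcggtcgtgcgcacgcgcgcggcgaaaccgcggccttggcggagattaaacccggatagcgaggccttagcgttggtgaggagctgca
Snrpf: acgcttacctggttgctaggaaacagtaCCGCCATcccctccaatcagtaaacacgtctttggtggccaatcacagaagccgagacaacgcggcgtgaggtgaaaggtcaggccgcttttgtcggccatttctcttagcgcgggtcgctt
Hnrnpl: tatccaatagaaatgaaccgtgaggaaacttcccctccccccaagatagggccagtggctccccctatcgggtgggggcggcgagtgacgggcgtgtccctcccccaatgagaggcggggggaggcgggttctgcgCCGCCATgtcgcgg
Hnrnph3: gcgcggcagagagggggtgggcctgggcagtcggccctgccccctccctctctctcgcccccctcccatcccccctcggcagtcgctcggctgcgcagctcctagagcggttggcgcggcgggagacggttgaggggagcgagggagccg
The marked letters are CCGGAAG in Snrpc and Sf3a2, its reverse complement at 2 places in Snrpb2, and CCGCCAT, the reverse complement of the YY1 core, in Snrpf and Hnrnpl. Neither motif is present in the stretches of Snrpa1 and Hnrnph3.

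Over the full 300-base RefSeq windows, which reach from 250 bases before the start to 50 after it, 53 of the 59 members had a window. The members with no window were Hnrnpul2, Snrpb, Sf3b5, Sf3b4, Hnrnpll and Prpf18. The YY1 core ATGGCGG, searched on both strands, was present in 12 of the 53 members, against 4.05% of all 32851 windows and 7.04% of the 14452 measured genes with a window. Among members called higher in the knockout (defined below) 4 of 21 had it, namely Hnrnpl, Sf3b3, Snrpf and Srsf10, and among the other members 8 of 32 had it. The related core CCATNTT, which can overlap ATGGCGG through the letters CCAT and their complement ATGG, was present in 10 of 53 members, against 16.8% of measured genes. It stood in 2 of 21 members called higher and in 8 of 32 others. CCGGAAG was present in 19 of 53 members, among them 10 of the 21 called higher and 9 of the 32 others. Its share was 15.0% of measured genes and 27.4% of the 2022 measured genes called higher that had a window. The E-box CACGTG was present in 7 of 53 members (2 of 21 called higher and 5 of 32 others), against 10.2% of measured genes. Of the same 2022 genes called higher, 7.72% had ATGGCGG, 13.9% had CCATNTT and 12.3% had CACGTG. These matches describe letters in a window and carry no test.

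The deletion and the quality of the arrays were checked first. The brightest of the 4 Yy1 probe sets had intensities of 1648 and 1681 in the control arrays and 69.4 and 68.1 in the knockout arrays, and the other 3 differed by -2.74, -3.03 and -1.37 on the log2 scale. Median intensities of the arrays were 138.7 to 142.8, and control probe sets for Bacillus genes, used here as a measure of background, had medians of 31.9 to 35.6. The log2 ratio of 3′ to 5′ probe sets of Gapdh, which rises as RNA is degraded, was 1.41 ± 0.03 (SD, n = 2) in control and 1.67 ± 0.04 (SD, n = 2) in knockout. For Actb it was 0.26 in control and 0.31 in knockout. The exact two-sided permutation p was 0.333 for each, the smallest that 2 arrays against 2 allow. Summed intensities of 15 measured dividing-cell markers were 19760 and 19540 in control and 29410 and 27910 in knockout, and 12 of the 15 were called higher. Those of 12 enterocyte markers were 83430 and 81900 in control and 42100 and 59840 in knockout, with 8 called lower. The part of these shifts in cell markers and RNA ratios in the differences of the splicing genes was not tested. In bulk crypt RNA, fewer cells of a type and less RNA per cell cannot be told apart. Of 8 pan-epithelial markers 1 was called lower (sums of 53140 and 54460 against 45140 and 51470). Leukocyte markers summed to 9622 and 9986 in control and to 8990 and 9896 in knockout (13 genes, 2 called lower), mesenchymal markers to 1523 and 1680 against 1443 and 1251 (10 genes, 2 called lower), and endothelial markers to 479.9 and 466.7 against 540.7 and 479.7 (5 genes, none called). The endothelial marker Tek was at or below the Bacillus median on every array. The remaining lists were Lgr5 stem cell (6 genes, 1 lower), Paneth (4 genes, 1 higher), goblet (7 genes, 2 lower), enteroendocrine (7 genes, 1 higher and 1 lower) and tuft (5 genes, 4 lower).

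Genes were compared on log2(intensity + 16) with limma across all 18193 genes, and a gene was called at a Benjamini-Hochberg adjusted p under 0.05. Splicing genes were mostly higher in the knockout where they encode snRNP and Prpf proteins. Of the 59 members, 24 were called higher (40.7%) and 1 was called lower (1.69%), and the other 34 were not called. Over all genes 13.4% were called higher and 10.9% lower. The median difference of the members was 0.23 on the log2 scale, against 0.01 for all genes, and single members ranged from -0.45 (Hnrnph3) to 1.24 (Snrpb). Of the 24 members called higher, 13 were at least 1.5-fold higher, and 2 of them, Snrpb and Sf3a2, at least 2-fold. The other probe set of these 2 genes lay below 2-fold, at 0.87 on the log2 scale for Snrpb and 0.34 for Sf3a2. The share at least 2-fold higher over all genes was not counted. Over all genes 6.9% were both called and at least 1.5-fold higher. In 41 members both knockout arrays lay above both control arrays, and in 8 both lay below. All genes showed these patterns in 32.7% and 29.3% of cases. The last member inside the threshold was Hnrnpa0 (adjusted p = 0.0329) and the first outside was Hnrnph2 (adjusted p = 0.0503).

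With 4 arrays in all, the precision of these counts is limited. Without control replicate 1 the members called higher numbered 14, without control replicate 2 they numbered 12, without knockout replicate 1 they numbered 16 and without knockout replicate 2 they numbered 22. Over all genes the same fits called 1321, 1139, 1459 and 2293 higher, against 2442 with all 4 arrays. In such fits the lone array of a group is assumed to vary like the pair in the other group. Of the 25 called members, 12 kept their call without each array in turn. They were Sf3a2, Sf3b3, Sf3b5, Snrpb, Snrpd3, Snrpa1, Snrpc, Snrpb2, Prpf3, Prpf4, Prpf31 and Srsf9. Hnrnpl, Prpf18 and Prpf4b lost the call without any of the 4 arrays. Hnrnpa0, Sf3b6, Snrpe, Snrpf and Srsf11 lost it without either control array or knockout replicate 1. Hnrnph3, Prpf39 and Srsf10 lost it without either control array, and Prpf38a and Sf3a3 without control replicate 2.

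**Figure D1:**
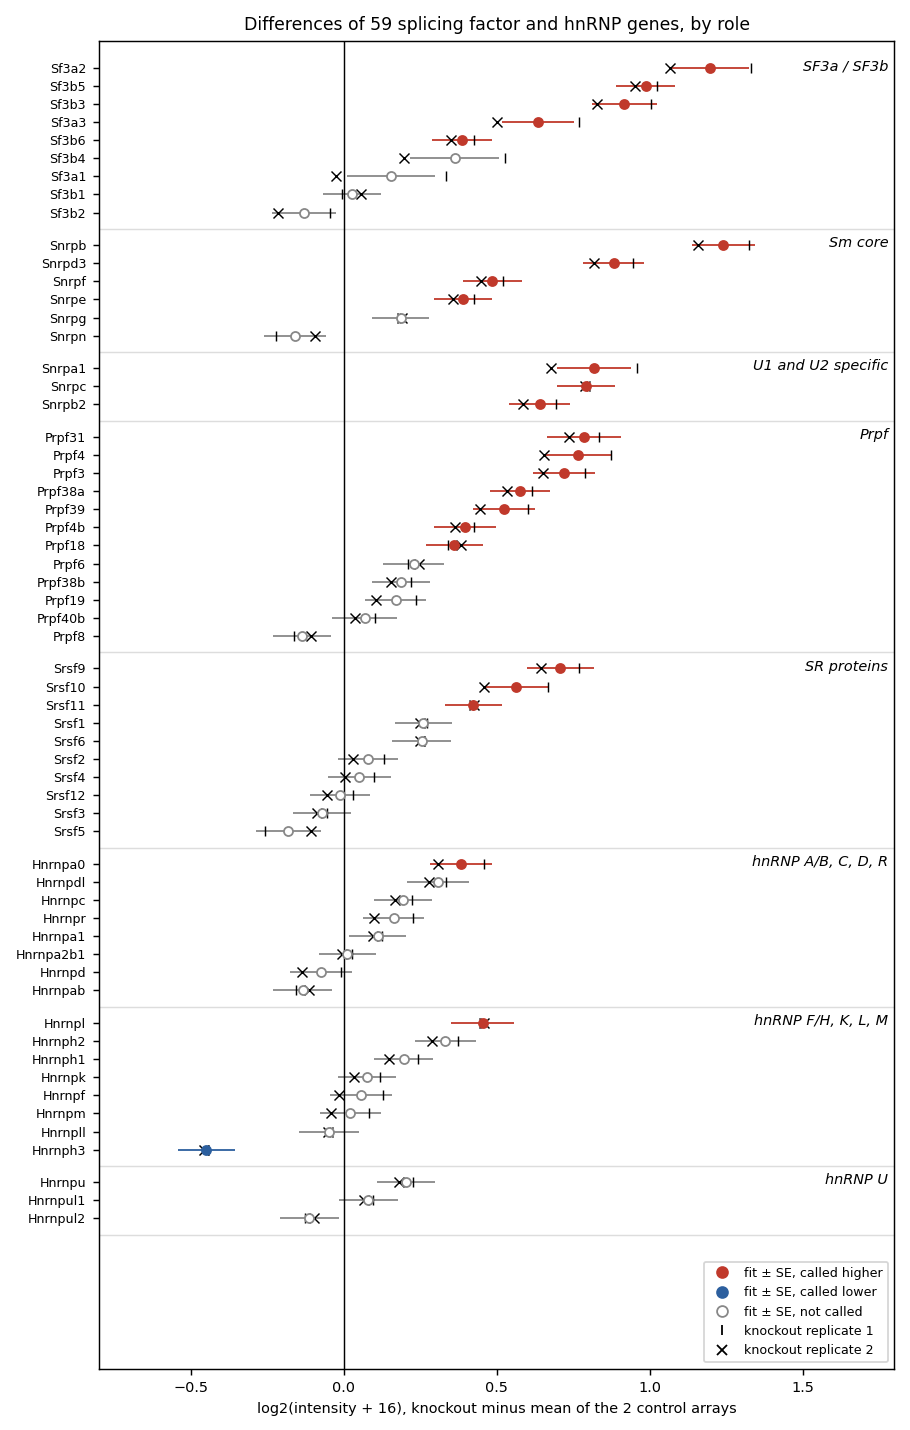
Differences of the 59 genes by role: the horizontal axis is knockout minus control on log2(intensity + 16), circles with bars are the limma estimate ± SE, and bars and crosses in black are knockout replicates 1 and 2 against the mean of the 2 control arrays. Red circles (24) lie to the right of 0 and the single blue circle, Hnrnph3, to its left, with most red circles in the SF3, Sm, U1 and U2, and Prpf groups.

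The SF3a and SF3b complexes of the U2 snRNP had 9 measured subunits, of which 5 were called higher and none lower, with a median difference of 0.39. Sf3a2, an SF3a subunit that helps tie the complex to U2, had intensities of 236 and 269.7 in the control arrays and 659 and 546 in the knockout arrays, a difference of 1.20 ± 0.13 on the log2 scale (SE; adjusted p = 0.00148). Sf3b5, a small SF3b protein, stood at 1033 and 1078 in control and at 2162 and 2056 in knockout (0.99 ± 0.10, adjusted p = 0.00115). Sf3b3, a large scaffold of SF3b, stood at 1164 and 1213 in control and at 2400.1 and 2124 in knockout (0.92 ± 0.11, adjusted p = 0.0019). In each of these 3 genes the lower knockout array was well above the higher control array. Sf3a3, a further SF3a subunit, rose by 0.63 ± 0.12 (adjusted p = 0.00905), and Sf3b6, a small protein that lies close to the branch point adenosine, by 0.39 ± 0.10 (adjusted p = 0.0276). Sf3b1 is the SF3b subunit that clamps the branch point helix. Its intensities were 4469.6 and 4491 in control and 4469 and 4658 in knockout, so the groups overlapped (0.03 ± 0.09, adjusted p = 0.884). All 4 Sf3b1 probe sets gave differences near 0, from -0.001 to 0.08. Sf3b2, which binds SF3b to the pre-mRNA near the branch point, differed by -0.13 ± 0.10 (adjusted p = 0.439), and its 7 probe sets ranged from -0.13 to 0.07. Sf3a1 (0.15 ± 0.14) and Sf3b4 (0.36 ± 0.15) had the widest errors of the group, and the Sf3a1 arrays overlapped. Without control replicate 2 the number of subunits called higher was 3. With each gene's dimmest probe set in place of its brightest it was 2.

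The Sm proteins form the ring that closes around the U1, U2, U4 and U5 RNAs. Of 6 measured Sm genes 4 were called higher, and the median difference was 0.44. Snrpb, which encodes the SmB proteins, had intensities of 556 and 567 in the control arrays and 1429.9 and 1273 in the knockout arrays. The difference of 1.24 ± 0.10 (adjusted p = 0.000784) was the largest of all 59 members. Snrpd3, the SmD3 gene, stood at 1969 and 1936 in control and at 3777 and 3457 in knockout (0.88 ± 0.10, adjusted p = 0.00179). Snrpf, the SmF gene, stood at 1518 and 1573 in control and at 2227 and 2114 in knockout (0.49 ± 0.10, adjusted p = 0.0116), and Snrpe, the SmE gene, differed by 0.39 ± 0.10 (adjusted p = 0.0244). SmE, SmF and SmG enter the ring as a preformed trimer, and the third gene, Snrpg, was not called from its brightest probe set. That probe set read 8710.4 and 8567 in control against 9814 and 9859 in knockout (0.19 ± 0.09, adjusted p = 0.209). The other Snrpg probe set read 2783 and 2774 against 5009 and 4742, a difference of 0.81 ± 0.10 (adjusted p = 0.00219 over all probe sets). Snrpn, the SmN gene that is best known from neurons, was dim in all arrays, at 85.9 and 92.7 in control and 74.2 and 82.6 in knockout (-0.16 ± 0.10, adjusted p = 0.33). The count of 4 called Sm genes was 2 without control replicate 1, control replicate 2 or knockout replicate 1.

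The Snrp prefix also holds proteins found on only U1 or U2, and all 3 that were measured were called higher, with a median difference of 0.79. Snrpc, the U1 protein that stabilises pairing with the start of the intron, had intensities of 781 and 814 in control and 1395 and 1390.1 in knockout (0.79 ± 0.09, adjusted p = 0.00212). Snrpa1, part of the pair of proteins on a stem-loop of U2 RNA, stood at 1339.7 and 1343 in control and at 2625 and 2155 in knockout (0.82 ± 0.12, adjusted p = 0.00401). Its partner Snrpb2 stood at 1157 and 1215 in control and at 1929.6 and 1789 in knockout (0.64 ± 0.10, adjusted p = 0.00492). The groups were apart in all 3 genes, and each of the fits that left out 1 array called all 3. When the dimmest probe set stood for a gene, 1 of the 3 was called, Snrpa1. Its 3 probe sets differed by 0.81 to 0.89 and each was called higher, whereas the dimmest Snrpb2 probe set, at 61.2 and 71.7 in control and 72.9 and 70.3 in knockout, was not.

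**Figure D2:**
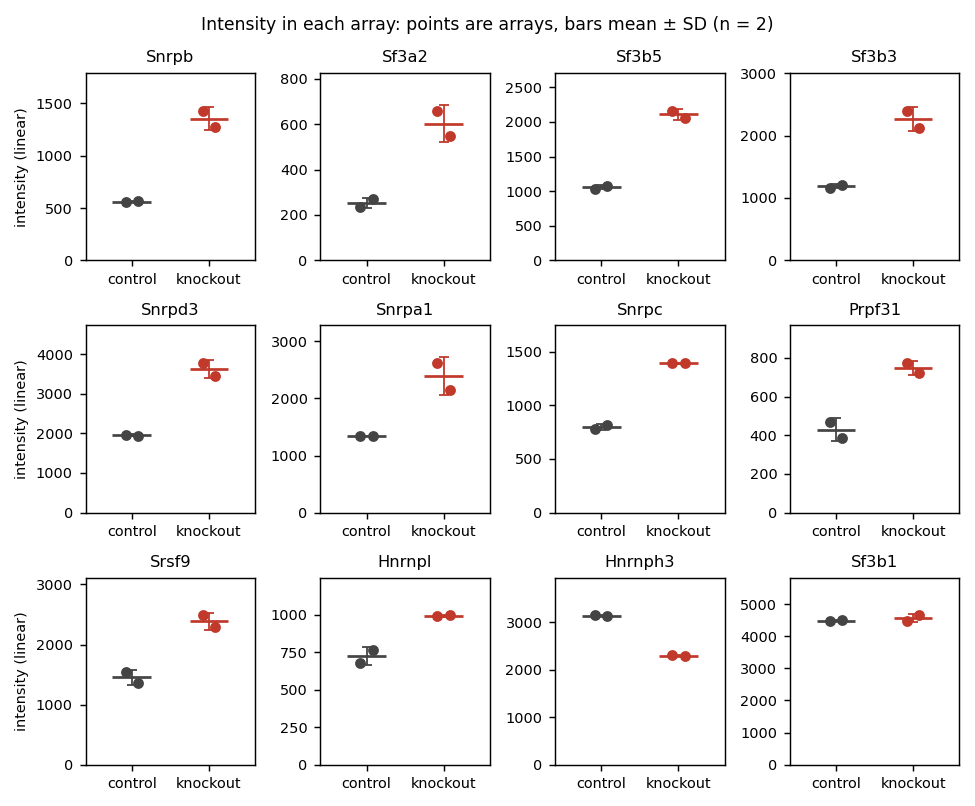
Linear intensity of 12 members in each array: points are arrays, horizontal bars the group mean and whiskers ± SD (n = 2), with every axis starting at 0. Knockout points lie above both control points for Snrpb through Hnrnpl and below them for Hnrnph3. For Sf3b1 a knockout point lies just below both control points and the other lies above them.

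The Prpf genes, named after yeast pre-mRNA processing mutants, act mainly in the tri-snRNP and during activation. Of 12 measured, 7 were called higher and none lower, with a median difference of 0.38. The 3 U4/U6 proteins Prpf3, Prpf4 and Prpf31 rose together. Prpf3 stood at 948 and 909 in control and at 1616 and 1468 in knockout (0.72 ± 0.10, adjusted p = 0.00353). Prpf4 stood at 427 and 429.9 in control and at 799 and 684 in knockout (0.76 ± 0.11, adjusted p = 0.00381). Prpf31, which holds U4/U6 together with U5, stood at 469.7 and 387 in control and at 774 and 722 in knockout (0.79 ± 0.12, adjusted p = 0.00471). Knockout arrays were above control arrays in all 3. Smaller differences were called in Prpf38a, which is recruited as the spliceosome is activated (0.58 ± 0.10, adjusted p = 0.00652), and in Prpf39, a U1-associated protein (0.52 ± 0.10, adjusted p = 0.0109). They were also called in Prpf4b, a kinase that acts on tri-snRNP proteins (0.40 ± 0.10, adjusted p = 0.0293), and in Prpf18, a factor of the second catalytic step (0.36 ± 0.09, adjusted p = 0.0306). Prpf8, the U5 protein that cradles the catalytic RNA, stood at 754 and 759.9 in control and at 675 and 701 in knockout, below control in both arrays but not called (-0.14 ± 0.09, adjusted p = 0.368). Prpf19, the ubiquitin ligase that names the Prp19 complex, stood at 7974 and 7819.9 in control and at 9300.5 and 8501 in knockout (0.17 ± 0.10, adjusted p = 0.281). Prpf6, Prpf38b and Prpf40b differed by 0.23, 0.19 and 0.07, and none was called. The count of 7 called Prpf genes was 4 without control replicate 1 and 3 without control replicate 2.

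Of the 10 measured SR protein genes, 3 were called higher and none lower, and the median difference was 0.17. Srsf9 stood at 1546 and 1367 in control and at 2490.0 and 2285 in knockout (0.71 ± 0.11, adjusted p = 0.00488). Srsf10, an SR protein that represses splicing when dephosphorylated, stood at 2608 and 2621 in control and at 4168 and 3597 in knockout (0.56 ± 0.11, adjusted p = 0.0106). Srsf11 stood at 1816 and 1877 in control and at 2480.0 and 2486 in knockout (0.42 ± 0.09, adjusted p = 0.0174). In these genes the groups did not overlap, and of the 3 only Srsf9 kept its call without either control array. The best known family members were not called. Srsf1, the founding SR protein, stood at 3984 and 4014 in control and at 4830.1 and 4760.5 in knockout (0.26 ± 0.09, adjusted p = 0.0891). Srsf2, which also marks nuclear speckles, stood at 3962 and 3870.1 in control and at 4289.8 and 4000.0 in knockout (0.08 ± 0.10, adjusted p = 0.621). Srsf3, the smallest SR protein, stood at 4841 and 4918 in control and at 4702 and 4592 in knockout (-0.07 ± 0.09, adjusted p = 0.657). Srsf1 and Srsf2 lay above control, and Srsf3 below, in both knockout arrays. Srsf4, Srsf5 and Srsf6 differed by 0.05, -0.18 and 0.25. Of the 4 Srsf6 probe sets, the 3 dimmer ones gave 0.35, 0.46 and 0.46 and were called higher when every probe set was tested. Srsf12, at intensities of 3.51 to 4.67, was below the Bacillus median in every array.

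The 19 measured hnRNP genes included 2 called higher (10.5%) and 1 called lower (5.26%), with a median difference of 0.08. Over all genes, dim ones included, these shares were 13.4% and 10.9%. The count of 2 depended on the setting. It was 7 with the trended and robust prior, 5 with the mean of a gene's probe sets, 4 with quantile normalization, with a pseudocount of 64 or without dim genes, and 1 with a pseudocount of 1. It was 0 without control replicate 1, control replicate 2 or knockout replicate 1, and 1 without knockout replicate 2. Among the A/B, C, D and R proteins 1 of 8 was called. Hnrnpa0, a member of the A/B family, stood at 1776 and 1774 in control and at 2449 and 2202 in knockout (0.38 ± 0.10, adjusted p = 0.0329). Hnrnpdl stood at 2831 and 3100.4 in control and at 3745 and 3602 in knockout (0.31 ± 0.10, adjusted p = 0.0668), and Hnrnpc, which binds uridine tracts, at 3689.6 and 3588 against 4251 and 4087 (0.20 ± 0.10, adjusted p = 0.197). Both knockout arrays were above both control arrays in these 3 genes. Hnrnpa1, a repressor of many exons, stood at 4535 and 4645 in control and at 5012 and 4907 in knockout (0.11 ± 0.09, adjusted p = 0.462). Hnrnpa2b1, Hnrnpd and Hnrnpr differed by 0.01, -0.07 and 0.16.

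Of the 8 measured F/H, K, L and M proteins, 1 was called in each direction. Hnrnph3, of the G-run binding H family, stood at 3156 and 3133 in control and at 2311 and 2288 in knockout, and fell by 0.45 on the log2 scale (SE 0.09, adjusted p = 0.0138). It was the single member called lower, and it has 1 probe set. Its relatives lay the other way without being called. Hnrnph2 stood at 1762 and 1650.3 in control and at 2217 and 2086 in knockout (0.33 ± 0.10, adjusted p = 0.0503), and Hnrnph1 differed by 0.20 ± 0.10 (adjusted p = 0.206). The difference between Hnrnph3 and its relatives was not tested. Hnrnpl, which binds CA repeats, stood at 679 and 764 in control and at 988 and 997 in knockout (0.45 ± 0.10, adjusted p = 0.0191). Hnrnpk, which binds poly-C RNA and DNA, stood at 4041 and 4109.8 in control and at 4426 and 4177 in knockout (0.08 ± 0.10, adjusted p = 0.634). Hnrnpf, Hnrnpll and Hnrnpm differed by 0.06, -0.05 and 0.02, with overlapping arrays in each.

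None of the 3 measured hnRNP U genes was called. Hnrnpu, which also anchors chromatin in the nucleus, stood at 4930.1 and 4835 in control and at 5718 and 5537 in knockout (0.20 ± 0.09, adjusted p = 0.176). Hnrnpul1 stood at 2529 and 2689 in control and at 2786 and 2734 in knockout (0.08 ± 0.10, adjusted p = 0.615). Hnrnpul2 stood at 3653 and 3878 in control and at 3446 and 3519 in knockout (-0.11 ± 0.10, adjusted p = 0.473). Set side by side, the 30 Sf3, Snrp and Prpf genes had 19 called higher (63.3%), none called lower and a median difference of 0.44. The 29 Srsf and Hnrnp genes had 5 called higher (17.2%), 1 called lower (3.45%) and a median difference of 0.08. Both knockout arrays lay above both control arrays in 24 of the 30 and in 17 of the 29, against 32.7% of all genes. The difference between these groups was not tested. Without control replicate 2 the first group had 11 called higher, and it had 13 to 18 in the fits without each other array. The second group had 1 without control replicate 1 or control replicate 2, 2 without knockout replicate 1 and 4 without knockout replicate 2. Its count was 8 with a pseudocount of 64, 9 with the mean of a gene's probe sets and 11 with the trended and robust prior, settings under which the first group had 19, 18 and 21.

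The members carried 171 probe sets in all, 16 genes having 1 and 43 having several. When every probe set was tested, 56 of the 171 were called higher and 3 lower, against 13.0% and 10.5% of all 34945 probe sets assigned to 1 gene. Of the 18 genes called higher with several probe sets, 12 had a further probe set called higher, in 6 every probe set was called higher, and none had a probe set called lower. Snrpd3 gave 0.66, 0.88 and 1.47 from its 3 probe sets. Among the 25 uncalled genes with several probe sets, 7 had a dimmer probe set called higher (Hnrnpab, Hnrnpc, Hnrnpdl, Hnrnpu, Prpf19, Snrpg and Srsf6), and 2 had one called lower (Hnrnpu and Srsf3). Hnrnpab differed most between its probe sets. The brightest read 10348 and 10979.9 in control against 9573 and 9852 in knockout (-0.13 ± 0.10), while 5 of the other 6 were called higher, at 0.41 to 0.79. In Hnrnpu a dimmer probe set read 3000.2 and 3045 against 2271 and 2224 (-0.43 ± 0.10, adjusted p = 0.0187 over all probe sets), opposite in sign to the brightest. In Srsf3 the dimmest of 6 probe sets read 589 and 559.8 against 322 and 335 (-0.78 ± 0.10, adjusted p = 0.00253 over all probe sets), and the other 5 were not called. Which transcripts these probe sets read was not examined here.

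Some probe sets carry an s or x suffix, which marks oligonucleotides shared with other transcripts. Such a probe set represented 13 members, of which Sf3a2, Sf3b5, Snrpb and Snrpe were called higher. Using only probe sets without these suffixes, an alternative chosen after seeing the data, 23 members were called higher. Snrpe, which has no other probe set, was then absent, and Snrpg was called. Sf3a2 then read 129 and 124 in control against 149.6 and 179 in knockout (0.34 ± 0.11) and was not called. The second Sf3b5 probe set, at 415 and 406 against 843 and 811 (0.98 ± 0.10), was called like the first. The second Snrpb probe set, at 329 and 355 against 661 and 614 (0.87 ± 0.10), was called as well. Among the genes outside the 5 prefixes named below, Eftud2, Usp39, Lsm6, Rnpc3, Clns1a and Prmt5 were read from probe sets with such a suffix. No other probe set of these genes is given here.

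**Figure D3:**
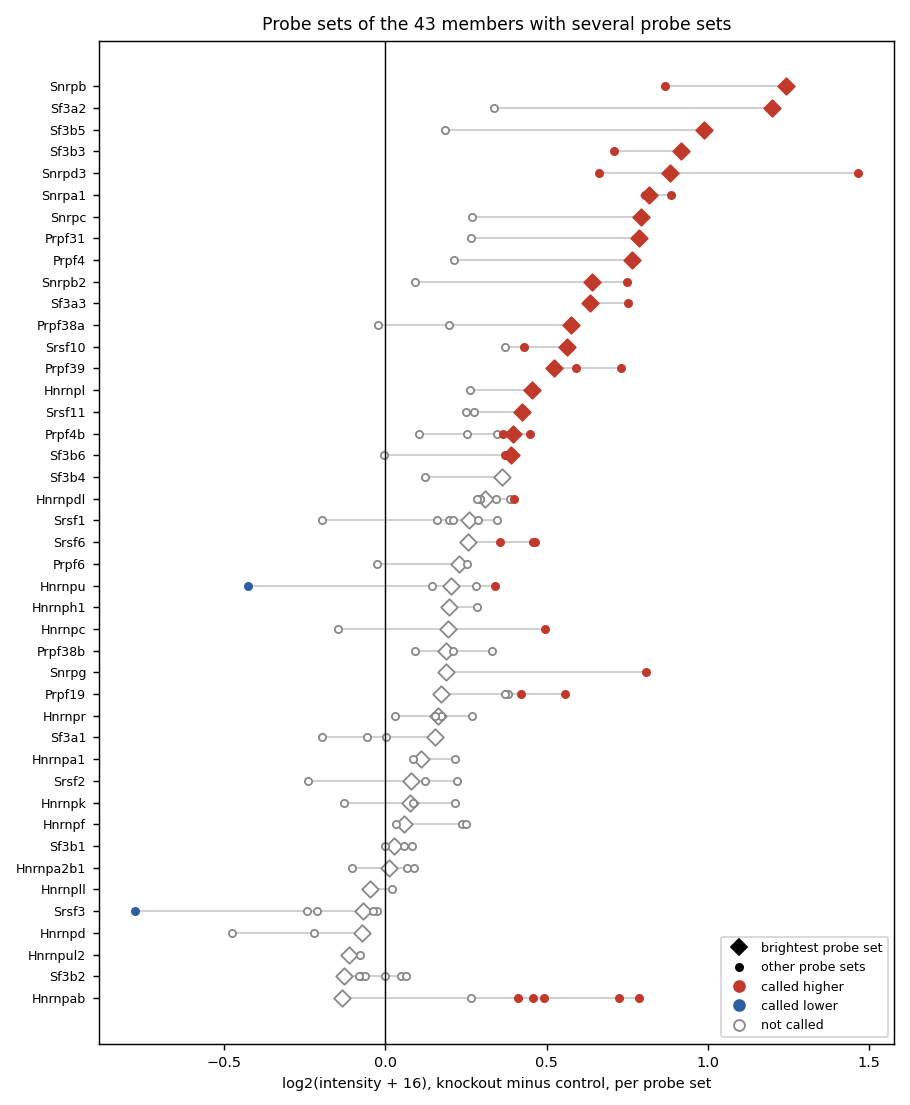
Every probe set of the 43 members that have several: the horizontal axis is knockout minus control on log2(intensity + 16), diamonds are the brightest probe set of a gene and small circles the others, red called higher, blue called lower and open not called. Snrpd3 and Snrpa1 have red marks only, whereas Hnrnpab has its open diamond to the left of 0 and 5 red circles to the right.

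The knockout arrays differed in how far they lay from control. In 21 of the 24 members called higher, knockout replicate 1 was above knockout replicate 2, as it was in 1965 of the 2442 genes called higher over all (80.5%). The median of the 24 members over the control mean was 0.73 in replicate 1 and 0.56 in replicate 2, against 0.65 and 0.53 for all genes called higher. For all 59 members these medians were 0.26 and 0.20, and for all genes -0.003 and 0.03. The enterocyte marker sums given above were further from control in replicate 1 as well, at 42100 against 59840, and their part in this was not tested.

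Further splicing genes outside the 5 prefixes were read from 9 lists, which held 148 genes, of which 134 were measured. Of these 62 were called higher (46.3%) and 6 lower (4.48%), with a median difference of 0.29. Without control replicate 1, control replicate 2 and knockout replicate 1 the genes called higher numbered 32, 27 and 34, and without knockout replicate 2 they numbered 52. Partners in U1, U2 and branch site recognition had 11 of 15 called higher and none lower. With each gene's dimmest probe set, 7 were called higher and 1 lower. The 11 included U2af1, which reads the 3′ splice site (0.72 ± 0.10, adjusted p = 0.00366), and its relative U2af1l4 (0.65 ± 0.10, adjusted p = 0.00425). Snrnp70, which binds U1 RNA, was also among them (0.63 ± 0.10, adjusted p = 0.00568). Their count was 6 without control replicate 1, 4 without control replicate 2 and 5 without knockout replicate 1. Of the tri-snRNP partners 5 of 10 were called higher and none lower. The U5 GTPase Eftud2 stood at 662 and 588 in control and at 1431 and 1225 in knockout (1.07 ± 0.12, adjusted p = 0.00173), the helicase Snrnp200 that unwinds U4 from U6 differed by 0.72 ± 0.10, and Usp39 by 0.81 ± 0.12. Of the LSm proteins, which bind U6 RNA or act in mRNA decay, 6 of 9 were called higher. Lsm2 stood at 164 and 174 in control and at 445 and 365 in knockout (1.18 ± 0.12, adjusted p = 0.00132), and Lsm6 and Lsm4 differed by 0.86 ± 0.10 and 0.54 ± 0.09. The LSm count was 3 without control replicate 1, control replicate 2 or knockout replicate 1.

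The minor spliceosome, which removes a rare class of introns, had 5 of 7 genes called higher, with Snrnp35 at 0.91 ± 0.12, Rnpc3 at 0.73 ± 0.12 and Snrnp25 at 0.71 ± 0.09. Without control replicate 1 its count was 3. The Prp19 complex and catalytic step factors had 17 of 22 called higher. Isy1 stood at 499 and 549 in control and at 1178 and 1005 in knockout (1.03 ± 0.12, adjusted p = 0.0018), and the helicase Dhx38 and Crnkl1 differed by 0.82 ± 0.10 and 0.74 ± 0.10. In the same list Syf2 was called lower (-0.37 ± 0.10, adjusted p = 0.0385), a call that was lost without any of the 4 arrays. The 17 genes called higher numbered 10, 9 and 10 without control replicate 1, control replicate 2 and knockout replicate 1. Factors of snRNP assembly had 5 of 13 called higher and none lower. Both knockout arrays lay above both control arrays in 8 of the 13. They lay below in 3, Prmt5 (-0.41 ± 0.16), Phax (-0.28 ± 0.13) and Coil (-0.21 ± 0.10), none of them called. Over all genes these patterns were seen in 32.7% and 29.3% of cases. Smn1, the gene mutated in spinal muscular atrophy, stood at 225.6 and 225.9 in control and at 598 and 466 in knockout (1.17 ± 0.13, adjusted p = 0.00178), and the Sm chaperone Clns1a and Strap differed by 0.65 ± 0.10 and 0.54 ± 0.10. Without control replicate 2 the count of these assembly factors was 2.

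Among regulators outside the core, genes were called in both directions, as they were over all genes (13.4% higher and 10.9% lower). The exon junction complex had 2 of 7 called higher, Alyref (0.50 ± 0.11) and Rbm8a (0.37 ± 0.10), and neither list member was called without control replicate 1, control replicate 2 or knockout replicate 1. SR kinases and SR-related proteins had 4 of 17 called higher (23.5%) and 1 lower (5.88%). Those called higher included Scaf11 (0.61 ± 0.10) and Srrm1 (0.45 ± 0.10). The 4 were 1 without either control array and 2 without knockout replicate 1. In that list Clk1, a kinase that phosphorylates SR proteins, stood at 2740.3 and 2937 in control and at 1607 and 1687 in knockout and was called lower (-0.78 ± 0.10, adjusted p = 0.00252). Other RNA-binding regulators had 7 of 34 called higher (20.6%) and 4 lower (11.8%, near the share of all genes). Raly, an hnRNP C relative, was called higher (0.43 ± 0.10, adjusted p = 0.0197). Cirbp, the cold-inducible RNA-binding protein, stood at 351 and 447 in control and at 127 and 114 in knockout (-1.59 ± 0.13, adjusted p = 0.00081). Rbmx, which encodes hnRNP G, stood at 998 and 939 in control and at 525 and 436 in knockout (-0.99 ± 0.12, adjusted p = 0.00213). The other 2 called lower were Rbm5 (-0.43 ± 0.11) and Ptbp2 (-0.48 ± 0.14). Without control replicate 1 or control replicate 2 none of these 34 was called higher and 2 were called lower, and without knockout replicate 1 and 2 respectively 1 and 2 were called higher.

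**Figure D4:**
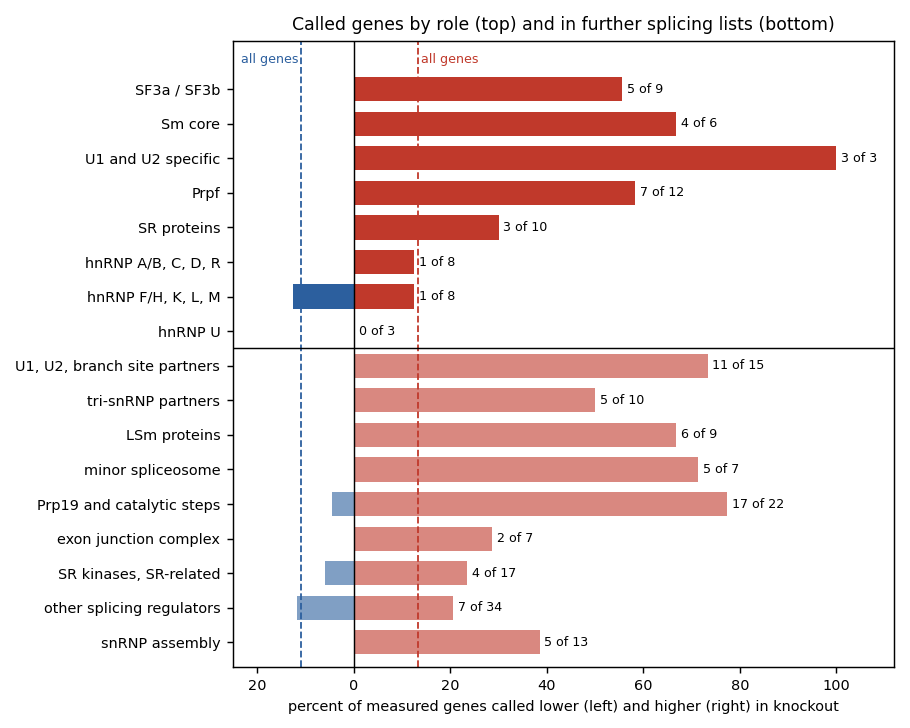
Share of measured genes called higher (right, red) and lower (left, blue) in each role group of the 59 members (top) and in the 9 further splicing lists (bottom), with the number called higher of those measured beside each bar. Dashed lines mark the shares over all genes, 13.4% higher and 10.9% lower. Red bars pass the red line in every group except the 3 hnRNP groups, so those of SR proteins and of the regulator lists pass it too. The bars of hnRNP A/B, C, D and R and of hnRNP F/H, K, L and M, each with 1 of 8 called higher, end just short of it.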

How the data were processed

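RNA of 4 crypt samples was hybridised to Affymetrix mouse arrays, per the labels. The deposited values are linear intensities, 1 per probe set and array, as the authors made them. The sources used here do not give the summary method, background correction or normalization, and values end at a floor of 1. Gene names came from the platform annotation in GEO and were brought up to date by Entrez ID from RefSeq (GRCm38.p6). Of 45101 probe sets, 34945 had 1 gene, 932 several, 9160 none, and 64 were controls. From the deposited intensities, log2(intensity + 16) was computed with no further scaling and fitted with limma 3.58.1 (lmFit, eBayes; R 4.3.3) over 18193 genes, without a replicate block, with SEs on 7.02 degrees of freedom. The log2 scale with this pseudocount understates differences of dim genes. The fit was tested on simulated data in which fewer genes changed than were called here, by larger amounts than most members showed. That test therefore does not gauge the smaller differences reported above.

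The members and gene lists were chosen with earlier results of these data known. Named genes are the 3 members with the smallest p in each role group, each member called in the rarer direction, 10 widely studied members (Sf3b1, Snrpn, Prpf8, Prpf19, Srsf1, Srsf2, Srsf3, Hnrnpa1, Hnrnpk and Hnrnpu), and the 3 called genes with the smallest p in each further list. Other named genes were chosen after their values were seen, and the remaining members are given for completeness. Alternatives covered the pseudocount, scaling, a filter on dim genes, the choice of probe set, the prior, the replicate block, symbols and leaving out each array.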

Additional observations from a re-analysis of the deposited data

How the results depend on the processing

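Against 24 members called higher and 1 lower, the alternatives that kept all 4 arrays gave 19 (dimmest probe set of each gene) to 32 (trended and robust prior) higher. They gave 1 lower, except for 2 with the dimmest probe set. Leaving out each array gave 12 to 22 members higher and 0 to 1 lower, and 1139 to 2293 genes higher and 1032 to 2046 lower over all genes. The median difference of the members stayed between 0.20 and 0.27. Of the 25 called members, 6 kept their call under all 14 alternatives that could change it (Prpf3, Sf3b3, Snrpa1, Snrpb, Snrpd3 and Srsf9). Among values called under either setting, signs reversed in 3 members. Hnrnpab gave 0.72 with its dimmest probe set and 0.43 with the mean of its probe sets, and Prpf38a and Sf3b6 gave -0.022 and -0.0038 with their dimmest probe sets. Values called under neither setting also changed sign, among them Srsf1 (-0.20), Prpf6 (-0.025), Sf3a1 (-0.058), Hnrnpk (-0.13), Hnrnpa2b1 (-0.11) and Hnrnpll (0.022) with their dimmest probe sets. The cause was not tested. With the replicate block, 26 members were called higher and 1 lower (all genes 2661 and 2219). Same-numbered arrays shared deviations weakly (r = 0.10 over 18193 genes), so the numbers were not taken to pair the samples. The number of arrays and the unknown summary of the probes limit these results, and probe sets near the Bacillus medians, such as Srsf12 and the dimmest of Sf3b6, carry little signal.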

Other observations

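Of the probe sets assigned to several genes, 16 listed a gene with one of the 5 prefixes and were left out of the comparisons above. In 10 of them both knockout arrays were above both control arrays and in 5 both were below. Over all genes analysed these patterns were seen in 32.7% and 29.3% of cases. The differences of the 16 probe sets ranged from -1.29 to 0.87 on the log2 scale, with a median of 0.13. The signal of such a probe set cannot be divided between its genes.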
